A study of Mus musculus with 4 samples.

Results

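Mouse oocytes cultured for 12 h with the lower dose of tubastatin A (TubA), 10 μM, were set against oocytes matured for 12 h without it (MII), over all 21957 genes of the deposited expression table. The comparison holds 2 of the 4 RNA-seq libraries of the study, TubA-10 and MII. It is defined by condition and not by any measured value, and was chosen with earlier results of these data known. The other libraries are oocytes at the germinal vesicle stage at 0 h of culture (GV) and oocytes cultured for 12 h with 20 μM TubA (TubA-20), and their values are given beside the comparison. Each library is 1 pool of oocytes from females of the hybrid strain B6D2F1 (C57BL/6 x DBA) aged 6 to 8 weeks, primed with PMSG, freed of cumulus cells and kept in M16 medium. All groups therefore share strain, priming and medium, and TubA was dissolved in DMSO. The labels call the MII oocytes non-treated, and whether they were given the solvent was not stated. Per the study's methods MII oocytes were taken when they had extruded a polar body, and no such choice was stated for TubA oocytes, so the drug and the stage reached cannot be told apart. The titles give 10 and 20 μM for the treated libraries, as the paper does, while the treatment field has 20 μM for the library titled 10 and 11 μM for the one titled 20, and the doses of the titles are used here. The title of the MII library says embryo, where the paper describes oocytes. With 1 library for each condition there was no replicate, so the spread between pools of a condition is unknown and no difference carries a p-value.

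A fully grown oocyte makes almost no new RNA and lives on stored maternal mRNAs. While it resumes meiosis and reaches metaphase II, many of these mRNAs lose their poly(A) tail and are degraded, and others, often marked by a cytoplasmic polyadenylation element (CPE) near the 3′ end, gain tail and are translated. TubA is a small molecule made to block HDAC6, a class IIb deacetylase that is mainly cytoplasmic and takes acetyl groups from α-tubulin among other proteins. Values are FPKM, fragments scaled to transcript length and to the mapped fragments of the library, so that they give the share of a transcript in the polyadenylated RNA of a library and not its amount in an oocyte. In such pools a different share of oocytes at a stage and a different amount of mRNA in each oocyte cannot be told apart. Differences are log2 of the ratio of FPKM + 1, TubA-10 over MII, called the log2 difference, which understates the difference of genes with low values.

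The identity of the pools was read from markers. The 14 oocyte markers were all listed in both libraries, with *H1foo*, the oocyte linker histone, at 7352 FPKM in TubA-10 and 7977 in MII and *Zp3*, a zona pellucida protein, at 2151 FPKM in TubA-10 and 2256 in MII. Their median log2 difference was -0.13 and none was past 1.5-fold. The 22 cumulus and granulosa markers summed to 25.8 FPKM in MII and 23.0 in TubA-10 (32.1 in GV, 30.1 in TubA-20), most of it in MII and TubA-10 from *Nr5a2* and *Cyp19a1*, and *Foxl2* was listed at 0 in every library. Of the 11 blood cell markers 5 were at 0 in every library, globins included, and their sum did not pass 0.32 FPKM. The 13 markers of stroma, endothelium and theca summed to 14.2 FPKM in MII and 11.5 in TubA-10, most of it from *Pecam1*. Outside these 3 genes every somatic marker was under 3 FPKM in MII and in TubA-10.

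TubA-10 and MII were the most similar of the 4 pairs examined, and TubA-10 against TubA-20 was not among those pairs. They were also the deeper libraries. By an estimate from low FPKM values GV was 0.57 and TubA-20 0.60 times as deep as MII, and the part of depth in these comparisons was not tested. Over the 7148 genes with a mean of at least 5 FPKM in the 4 libraries, the median log2 difference was 0.0080, the SD 0.37, and 89.6% of genes lay within 1.5-fold. The same SD was 0.52 for TubA-20 against MII, 0.75 for TubA-10 against GV and 0.96 for MII against GV. More than 2-fold, 113 genes had a higher value in TubA-10 than in MII, 0.515% of the 21957 genes, and 28 were lower, 0.128%. Of these, 88 higher genes (1.23% of the 7148) and 11 lower genes (0.154%) had a mean of at least 5 FPKM. Past 1.5-fold there were 841 higher genes (3.83%) and 231 lower genes (1.05%), of which 619 (8.66% of the 7148) and 124 (1.73%) had that mean. The higher genes therefore outnumbered the lower ones at both thresholds, but not past 3-fold, where 2 genes were higher and 6 lower. Under 4 other scalings of the libraries the number more than 2-fold higher was between 90 and 130 and the number lower 27 or 28. For comparison, 72 genes (0.328%) were higher and 536 (2.44%) lower in TubA-20 than in MII, a contrast with the same MII library. Of the 113 higher genes 111 code for proteins, and their median was 26.9 FPKM in TubA-10, 11.95 in MII, 31.0 in GV and 8.10 in TubA-20. The 28 lower genes lay lower, with a median of 1.39 FPKM in TubA-10 against 6.03 in MII, and 11 of them reached 10 FPKM in either library. *Gapdh*, a glycolytic enzyme often used to scale samples, was at 43.7 FPKM in TubA-10, 44.9 in MII, 52.6 in GV and 50.1 in TubA-20.

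**Figure D1:**
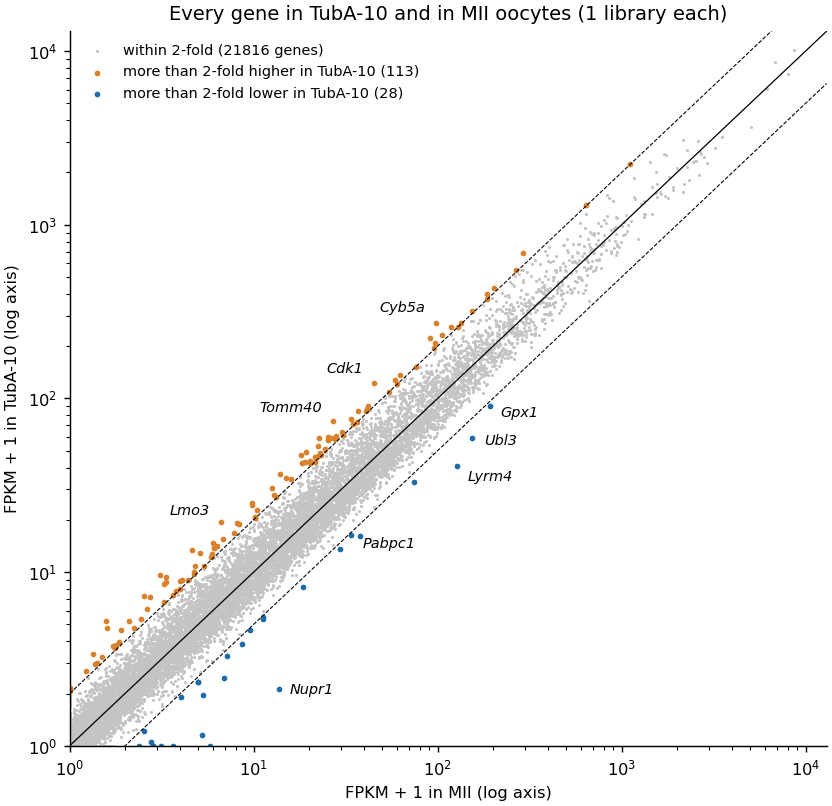
FPKM + 1 of every gene in MII (x axis) and in TubA-10 (y axis), both log axes, 1 point for each of the 21957 genes and 1 library on each side. The solid line marks equal values and the dashed lines 2-fold; 113 genes lie above the upper dashed line and 28 below the lower one, with *Nupr1* farthest from the line among the genes named here.

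The largest differences were read among genes that reached 10 FPKM in MII or TubA-10, 15 in each direction. They ranged from 1.25 to 1.55 on the higher side and from -0.91 to -2.69 on the lower side, where 11 were past 2-fold. The counting intervals below rest on fragment numbers estimated from the step between low FPKM values, by which TubA-10 was 1.06 times as deep as MII. That step was blurred in both libraries, so the intervals are rough, and they cover counting error alone, not the spread between pools.

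*Cdk1*, the kinase of maturation promoting factor (MPF, Cdk1 with cyclin B), was at 121 FPKM in TubA-10, 44.2 in MII, 179 in GV and 15.5 in TubA-20. It was high in GV and TubA-10 and low in MII and TubA-20, with a log2 difference of 1.43 between TubA-10 and MII. The gene lies at chr10:69335146-69352938, minus strand, on GRCm38. Its ratio of FPKM was 2.73, with a 95% counting interval of 2.63 to 2.84. *Tomm40*, the channel through which proteins enter mitochondria (chr7:19701313-19715438, minus strand), had 73.3 FPKM in TubA-10, 25.8 in MII, 72.8 in GV and 7.48 in TubA-20, a log2 difference of 1.47. *Prdx3*, the mitochondrial peroxiredoxin (chr19:60864051-60874556, minus strand), had 35.6 FPKM in TubA-10, 12.9 in MII, 29.7 in GV and 5.46 in TubA-20, a difference of 1.40. In both, TubA-10 was close to or above GV, and TubA-20 was the lowest library. *Cyb5a*, the electron carrier cytochrome b5, stood at 272 FPKM in TubA-10, 97.5 in MII, 477 in GV and 39.2 in TubA-20, and *Otub1*, a deubiquitinase, at 46.4 FPKM in TubA-10, 17.1 in MII, 118 in GV and 10.9 in TubA-20, with log2 differences of 1.47 and 1.39. *Ube2a*, a ubiquitin-conjugating enzyme of DNA repair, was at 220.3 FPKM in TubA-10, 89.6 in MII, 210.1 in GV and 54.7 in TubA-20, a difference of 1.29. *Lypla2*, a thioesterase that takes palmitate from proteins, was at 23.3 FPKM in TubA-10, 8.76 in MII, 11.0 in GV and 8.75 in TubA-20, so TubA-10 stood alone above 3 libraries of similar level.

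Others in this set were less abundant or are less known. *Lmo3*, a LIM-only transcription cofactor, had the largest higher difference (1.55), at 18.4 FPKM in TubA-10, 5.64 in MII, 27.9 in GV and 8.14 in TubA-20. *Sap18b*, next with 1.54, is a single-exon copy of *Sap18*, and how the counting split reads between such copies was not stated. Their values were 12.4 FPKM in TubA-10 and 3.62 in MII for *Sap18b*, and 1305 FPKM in TubA-10 and 638 in MII for *Sap18*, a subunit of the Sin3 histone deacetylase complex. *Plekhh3* was at 24.1 FPKM in TubA-10, 8.81 in MII, 31.0 in GV and 2.36 in TubA-20, and *Ly96*, the partner of the receptor TLR4, at 11.9 FPKM in TubA-10, 4.12 in MII, 18.0 in GV and 1.58 in TubA-20. *Igfbp7*, a secreted binding protein of growth factors, was at 52.0 FPKM in TubA-10, 21.3 in MII, 62.8 in GV and 13.9 in TubA-20. *Tmem33*, an endoplasmic reticulum membrane protein, was at 48.1 FPKM in TubA-10, 18.4 in MII, 50.9 in GV and 19.8 in TubA-20, and *Krt88* and *Oxnad1* differed by 1.28 and 1.28. In these genes MII was well below GV and TubA-10 lay between MII and GV or near GV. TubA-20 was close to MII in some (*Tmem33*), below it in others (*Plekhh3*), and above it in *Lmo3*, *Sap18b* and *Krt88*. *Sap18b* was at 7.77 FPKM in TubA-20 and *Krt88* at 17.1 FPKM in TubA-20 and 11.5 in MII.

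*Nupr1*, a small nuclear protein induced by stress (chr7:126623249-126630861, minus strand), had the largest lower difference. It was at 1.14 FPKM in TubA-10, 12.8 in MII, 8.88 in GV and 49.9 in TubA-20, so TubA-10 was the lowest library and TubA-20 the highest. The log2 difference from MII was -2.69. Its values rest on about 15.5 fragments in TubA-10 and 164 in MII, a ratio of 0.0892 with a counting interval of 0.0514 to 0.154. *Lyrm4*, which helps to build iron-sulfur clusters, was at 39.7 FPKM in TubA-10, 126 in MII, 30.5 in GV and 68.9 in TubA-20, a difference of -1.65. *Ubl3*, a ubiquitin-like protein of membranes, was at 58.5 FPKM in TubA-10, 152 in MII, 32.7 in GV and 69.7 in TubA-20, a difference of -1.36. *Gpx1*, the cytosolic glutathione peroxidase, was at 89.7 FPKM in TubA-10, 191 in MII, 48.8 in GV and 119.6 in TubA-20, a difference of -1.08. In *Lyrm4*, *Ubl3* and *Gpx1* GV was the lowest and MII the highest library. *Pabpc1*, the somatic cytoplasmic poly(A)-binding protein, was at 15.3 FPKM in TubA-10, 32.9 in MII, 25.3 in GV and 30.3 in TubA-20, with TubA-10 the lowest of the 4 libraries and a difference of -1.06. *Tmtc1*, a mannosyltransferase of the endoplasmic reticulum, was at 15.2 FPKM in TubA-10, 36.9 in MII, 10.8 in GV and 25.2 in TubA-20, and *Tcf7l2*, a transcription factor of Wnt signalling, at 13.4 FPKM in TubA-10, 26.0 in MII, 13.6 in GV and 27.3 in TubA-20. *Ubfd1*, *Arel1* (an E3 ubiquitin ligase), *Rtn4ip1* (a mitochondrial oxidoreductase) and *Ppp4r2* (a subunit of protein phosphatase 4) differed by -1.16, -1.10, -1.02 and -0.94. Another 4 of the 15 are uncertain as single genes. *Methig1* (-1.18), *Gm28036* (-1.07) and *Rsc1a1* (-0.91) overlap other genes on the same strand. *Gm47283* (-0.92) is annotated at chrY:90784738-90816464, and the origin of its reads in these female mice was not examined. *Lyrm4*, *Tmtc1*, *Arel1* and *Tcf7l2* also overlap other annotated genes on their strand.

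**Figure D2:**
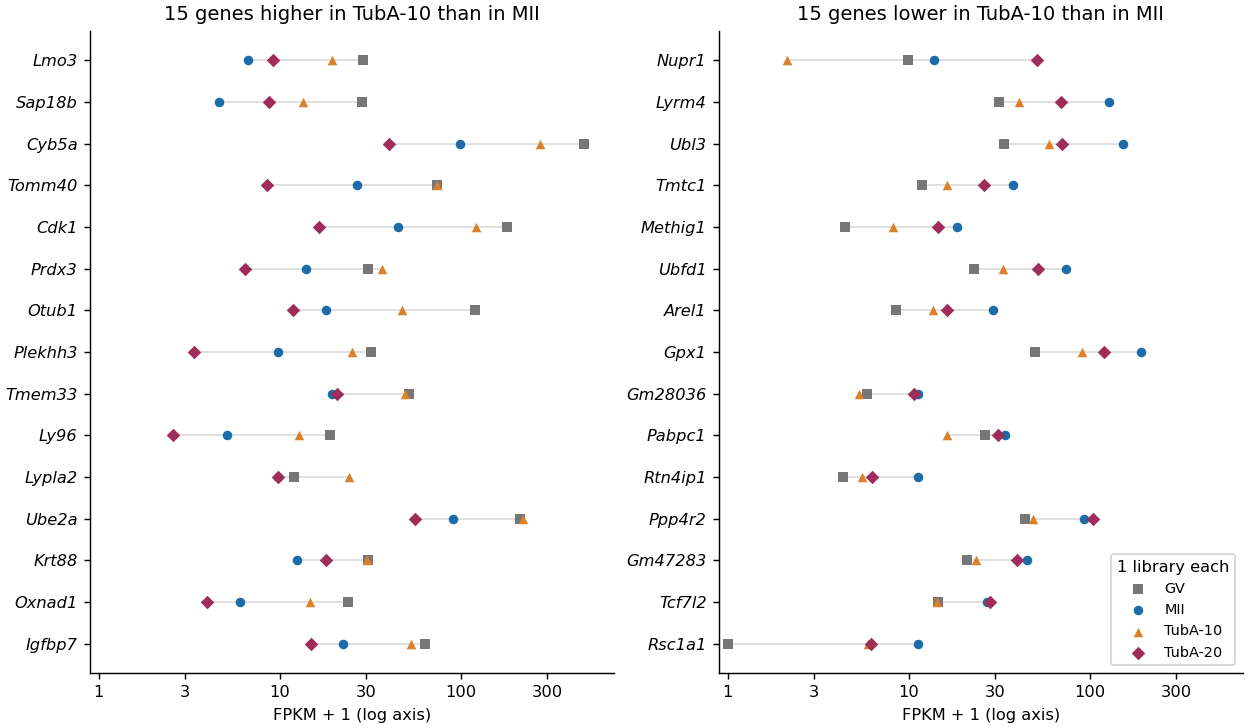
FPKM + 1 (log axis) of the 15 genes with the largest higher and the 15 with the largest lower difference between TubA-10 and MII, in all 4 libraries, 1 point for each library. In *Cdk1* and *Tomm40* TubA-10 lies to the right of MII and TubA-20 to the left of it, and in *Nupr1* TubA-10 is far to the left of the other libraries.

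A CPE is read here as TTTTAT or TTTTAAT on the transcribed strand, searched in the last 150 bases of the 3′ UTR of the principal coding transcript. Among the genes above with a 3′ UTR of at least that length, 1 of 14 higher genes (*Tmem33*) and 2 of 12 lower genes (*Tmtc1* and *Tcf7l2*) held one. Over all annotated genes with such a 3′ UTR the share was 23.4%. The 30 bases around each are shown, with the cyclin B1 gene *Ccnb1* as a well-known CPE-bearing mRNA of the oocyte. They are written 5′ to 3′ on the transcript strand, from GENCODE vM21 on GRCm38, with the element in capitals.
Tmem33, chr5:67291400-67291429, plus strand: TTTTATctaacaTTTTATtgatgtaaagtc
Tmtc1, chr6:148232440-148232469, minus strand: tgtaaatgtctaTTTTATataaaacatggt
Tcf7l2, chr19:55933098-55933127, plus strand: tttgtatgtagTTTTAATgtcacctataac
Ccnb1, chr13:100778775-100778804, minus strand: ctcatttgctgTTTTAATttatacatctga
A match is a description of the letters in this window and does not show that the element is used.

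For the counts past 1.5-fold in each list, the shares over all genes were 3.83% higher and 1.05% lower. Over genes with a mean of at least 5 FPKM these shares were 8.66% and 1.73%. The genes of the meiotic clock were described first. In MPF and its regulators 3 of 16 members were more than 1.5-fold higher and 0 lower, with a median log2 difference of 0.054, which turned just below 0 with equal FPKM sums. The higher ones were *Cdk1* (above), *Cdc25c*, a phosphatase that activates Cdk1, at 8.12 FPKM in TubA-10 and 4.34 in MII, and *Ensa*, a phosphatase inhibitor switched on by Greatwall kinase, at 9.82 FPKM in TubA-10 and 5.87 in MII. The cyclin mRNAs *Ccnb1*, *Ccnb2* and *Ccna2* lay on the other side of 0 within 1.5-fold. *Ccnb1* was at 626 FPKM in TubA-10, 749 in MII, 394 in GV and 927 in TubA-20 and *Ccna2* at 66.5 FPKM in TubA-10, 95.4 in MII, 47.7 in GV and 150.2 in TubA-20, with log2 differences of -0.26 and -0.51. *Cks2*, a small Cdk-binding subunit, was at 830.0 FPKM in TubA-10 and 1219 in MII (-0.55). *Ccnb2* (-0.063), *Wee2*, the oocyte kinase that holds Cdk1 inactive (-0.08), *Cdc25a* (-0.22), *Cdc25b* (-0.27), *Mastl*, the Greatwall kinase (0.015), *Pkmyt1* (0.092) and *Cks1b* (0.095) were nearer 0 or negative, and *Ccnb3* (0.24), *Arpp19* (0.28) and *Wee1* (0.39) were positive.

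Of the 10 genes of the Mos-MAPK pathway and the cytostatic factor, which hold the egg at metaphase II, none was past 1.5-fold. *Mos*, the kinase at its head, was at 571 FPKM in TubA-10, 726 in MII, 635 in GV and 1041 in TubA-20 (-0.34), and *Fbxo43*, the inhibitor of the anaphase-promoting complex (APC/C) known as Emi2, at 30.2 FPKM in TubA-10, 38.9 in MII, 16.9 in GV and 34.3 in TubA-20 (-0.35). *Mapk3* differed by 0.26, *Map2k1* by -0.20 and *Map2k2* by 0.48. The 12 genes of the cAMP and protein kinase A arrest, which keep the oocyte at prophase, had a median of -0.27, with 4 above 0 and 8 below, and of -0.43 over the 8 with a mean of at least 5 FPKM, of which 1 was above 0. Among them *Adcy9*, an adenylate cyclase, was at 4.56 FPKM in TubA-10 and 7.49 in MII and was the 1 member past 1.5-fold, *Pde3a*, the phosphodiesterase that destroys cAMP, at 14.2 FPKM in TubA-10 and 18.8 in MII, and *Gnas*, the stimulatory G protein, at 238 FPKM in TubA-10 and 339 in MII. *Gpr3*, the receptor that keeps cAMP high, was at 28.6 FPKM in TubA-10 and 22.8 in MII. In the APC/C list 2 of 18 members were lower by 1.5-fold and none higher, *Cdc20*, its activator at anaphase, at 79.8 FPKM in TubA-10, 122 in MII, 78.9 in GV and 137 in TubA-20 and *Anapc13* at 66.9 FPKM in TubA-10, 104 in MII, 60.8 in GV and 102 in TubA-20. *Fzr1*, the activator that holds the prophase arrest, was at 70.2 FPKM in TubA-10, 50.3 in MII, 63.6 in GV and 23.1 in TubA-20, on the other side. In the spindle checkpoint 1 of 13 was past 1.5-fold (*Trip13*, 2.56 FPKM in TubA-10 and 1.15 in MII), and *Mad2l1* and *Bub1b*, which sense unattached kinetochores, differed by 0.067 and -0.0041. None of the 11 Aurora, Plk1 and passenger genes was past 1.5-fold, with *Incenp* lowest (-0.39) and *Aurka* highest (0.49).

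Cohesin and its regulators were mostly below 0. Of 19 members 14 were below 0 and 4 above, with a median of -0.23 (-0.36 over the 16 with a mean of at least 5 FPKM), while *Rec8*, the meiotic kleisin, was listed at 0 in every library. *Espl1*, the separase that cuts cohesin, was at 22.9 FPKM in TubA-10, 37.1 in MII, 16.5 in GV and 35.8 in TubA-20 and was the member past 1.5-fold on the lower side, and *Stag3* (1.05 FPKM in TubA-10 and 0.34 in MII) the one on the higher side. *Pttg1*, securin, the separase inhibitor, was at 3645 FPKM in TubA-10, 5029 in MII, 2606 in GV and 7145 in TubA-20, and *Smc3*, a ring subunit, at 122 FPKM in TubA-10, 160.1 in MII, 60.9 in GV and 140.1 in TubA-20. In *Espl1*, *Pttg1* and *Smc3* GV was the lowest library and TubA-10 lay between GV and MII.

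The tubulin list holds α-tubulins, from which HDAC6 takes acetyl groups, beside other tubulins. Its median log2 difference was 0.21 over 20 genes, with 5 past 1.5-fold on the higher side and none on the lower. The higher ones were *Tubd1*, *Tuba3a*, *Tubb6*, *Tubb5* and *Tuba3b*. *Tuba3a* was at 97.9 FPKM in TubA-10, 62.7 in MII, 193 in GV and 36.1 in TubA-20 and *Tubb6* at 199 FPKM in TubA-10, 129 in MII, 238 in GV and 63.0 in TubA-20. *Tuba3a* and *Tuba3b* are near-identical copies, and how reads were split between them was not stated. *Tubb3* (-0.34) and *Tubg2*, a γ-tubulin (-0.42), lay on the other side. The enzymes that set tubulin acetylation were at low or moderate levels. *Hdac6* was at 2.998 FPKM in TubA-10, 3.74 in MII, 4.44 in GV and 1.86 in TubA-20, *Sirt2*, the other tubulin deacetylase, at 6.19 FPKM in TubA-10, 4.18 in MII, 6.77 in GV and 1.97 in TubA-20, and the acetyltransferase *Atat1* at 26.6 FPKM in TubA-10, 22.2 in MII, 20.8 in GV and 35.5 in TubA-20. Their log2 differences were -0.25, 0.47 and 0.26, so all 3 were within 1.5-fold. Kinesins, motor proteins along microtubules, had 31 of 42 members below 0 and 9 above, a median of -0.11 (-0.25 over the 21 with a mean of at least 5 FPKM). *Kif2a*, which shortens microtubules, was at 26.9 FPKM in TubA-10 and 44.6 in MII and was the 1 member past 1.5-fold, and *Kif23*, of the spindle midzone, was at 305 FPKM in TubA-10 and 398 in MII. No gene of the spindle pole list was past 1.5-fold, and 19 of 26 were below 0.

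Among actin regulators of spindle migration 3 of 24 were higher and 1 lower. *Pfn1*, profilin, was at 457 FPKM in TubA-10, 253 in MII, 478 in GV and 210.2 in TubA-20, *Capza1*, which caps actin filaments, at 19.8 FPKM in TubA-10, 9.13 in MII, 7.67 in GV and 6.45 in TubA-20, and *Actg1*, cytoplasmic γ-actin, at 30 FPKM in TubA-10, 18.7 in MII, 24.2 in GV and 14.8 in TubA-20. *Capza1* was the member for which TubA-10 stood above all other libraries by more than 2-fold. *Myo10*, a motor of filopodia, was at 30.2 FPKM in TubA-10 and 47.5 in MII and lay lower. None of the 9 Arp2/3 genes, which branch actin filaments, was past 1.5-fold, from -0.46 in *Actr2* to 0.38 in *Arpc1a*.

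None of the 11 measured histone deacetylases was past 1.5-fold, with a median of -0.018. Only 4 of them had a mean of at least 5 FPKM, and the log2 difference understates differences at low values. *Hdac2* was the highest, at 44.9 FPKM in TubA-10, 45.5 in MII, 54.0 in GV and 52.3 in TubA-20, followed by *Hdac8* at 9.66 FPKM in TubA-10, 9.97 in MII, 9.67 in GV and 7.07 in TubA-20 and *Hdac3* at 9.38 FPKM in TubA-10, 8.57 in MII, 9.18 in GV and 6.62 in TubA-20. *Hdac1* was at 5.28 FPKM in TubA-10 and 5.92 in MII and *Hdac9* at 2.87 FPKM in TubA-10 and 3.91 in MII, and *Hdac5*, *Hdac7*, *Hdac10* and *Hdac11* stayed under 1 FPKM in all 4 libraries. The 7 sirtuins, deacetylases that use NAD, had a median of 0.45, with 5 above 0. *Sirt6*, a nuclear sirtuin of DNA repair, was at 15.8 FPKM in TubA-10, 10.0 in MII, 33.8 in GV and 7.78 in TubA-20 and was past 1.5-fold, *Sirt5* at 7.89 FPKM in TubA-10, 4.96 in MII, 13.9 in GV and 2.98 in TubA-20 and *Sirt7* at 30.1 FPKM in TubA-10, 21.7 in MII, 36.2 in GV and 14.7 in TubA-20, while *Sirt1* was at 17.8 FPKM in TubA-10, 25.01 in MII, 13.9 in GV and 20.1 in TubA-20 (-0.47). *Sirt5*, *Sirt6* and *Sirt7* were highest in GV and lowest in TubA-20, and *Sirt1* was lowest in GV.

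Genes that handle maternal mRNA were read in lists. The deadenylases and decay factors had a median of -0.15 over 26 genes, with 10 above 0 and 16 below. Over the 22 with a mean of at least 5 FPKM the median was -0.17, with 7 above 0 and 15 below. *Pan3* (67.6 FPKM in TubA-10 and 102 in MII) was the 1 lower member past 1.5-fold. *Btg4*, the adaptor that brings the CCR4-NOT deadenylase to maternal mRNAs, was at 3031 FPKM in TubA-10, 2589 in MII, 1808 in GV and 2536 in TubA-20. In the list of storage and cytoplasmic polyadenylation, with a median of -0.022, *Pabpc1* (above) was the 1 member of 28 past 1.5-fold. *Cpeb1*, which binds the CPE, was at 173 FPKM in TubA-10, 127 in MII, 185 in GV and 83.8 in TubA-20, and *Pabpc1l*, the oocyte poly(A)-binding protein, at 69.9 FPKM in TubA-10, 51.9 in MII, 69.1 in GV and 21.8 in TubA-20, both on the higher side within 1.5-fold. *Zar1*, which stores maternal mRNAs, was at 2115 FPKM in TubA-10 and 2000.3 in MII.

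Oocyte factors were present at high levels on both sides. The zona pellucida genes differed little, by -0.24 in *Zp1*, -0.016 in *Zp2* and -0.069 in *Zp3*. In the subcortical maternal complex, which the early embryo needs, *Khdc3* was at 2311 FPKM in TubA-10, 1422 in MII, 1473 in GV and 531 in TubA-20, past 1.5-fold and above all other libraries, while *Nlrp5* (-0.19) and *Zbed3* (-0.19) lay slightly below 0 and *Ooep*, *Tle6* and *Padi6* between 0.30 and 0.35. Among 11 transcription factors 4 were higher by 1.5-fold and none lower. *Pou5f1* was at 67.5 FPKM in TubA-10, 39.6 in MII, 52.5 in GV and 54.3 in TubA-20, *Figla* at 70.2 FPKM in TubA-10, 41.9 in MII, 90.5 in GV and 12.4 in TubA-20, *Lhx8* at 105 FPKM in TubA-10, 65.4 in MII, 96.5 in GV and 35.6 in TubA-20 and *Tbp*, the TATA-binding protein, at 52.5 FPKM in TubA-10, 33.9 in MII, 44.9 in GV and 37.4 in TubA-20. *Sall4* was at 169 FPKM in TubA-10 and 231 in MII (-0.45), *Nobox* at 189 FPKM in TubA-10 and 194 in MII. The secreted factors *Gdf9* and *Bmp15* were at 2275 FPKM in TubA-10 and 2928 in MII and at 744 FPKM in TubA-10 and 972 in MII, with log2 differences of -0.36 and -0.39. All Obox genes that reached 5 FPKM lay below 0, from -0.35 in *Obox5* to -0.10 in *Obox2*, within 1.5-fold.

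Protein synthesis genes lay mostly above 0. Of the 86 cytoplasmic ribosomal protein genes 69 were above 0 and 16 below, with a median of 0.29, 12 past 1.5-fold on the higher side and none on the lower. *Rpl27* was at 374 FPKM in TubA-10, 185 in MII, 471 in GV and 122 in TubA-20, *Rps3* at 61.1 FPKM in TubA-10, 31.9 in MII, 108 in GV and 30.3 in TubA-20 and *Rps10* at 279.7 FPKM in TubA-10, 151 in MII, 577 in GV and 111 in TubA-20, with TubA-10 between MII and GV. The most abundant, *Rpl41* and *Rplp2*, differed by 0.31 and 0.055, and *Rpl9* was lowest of those with at least 5 FPKM, with -0.27. Mitochondrial ribosomal proteins had 73 of 81 above 0, a median of 0.29, 8 higher and 1 lower by 1.5-fold. Of the 77 with a mean of at least 5 FPKM 8 were higher, near the share of 8.66% over all such genes. *Mrps18b* was at 85.8 FPKM in TubA-10, 40.1 in MII, 132 in GV and 23.5 in TubA-20 and *Mrpl4* at 66.6 FPKM in TubA-10, 35.1 in MII, 98.7 in GV and 26.3 in TubA-20. Among 47 initiation factors 5 were higher and none lower. Of the 42 with a mean of at least 5 FPKM 5 were higher, beside a share of 8.66% over all such genes. *Eif4e*, the cap-binding protein, was at 102 FPKM in TubA-10, 55.2 in MII, 124 in GV and 52.6 in TubA-20 and *Eif5a* at 385 FPKM in TubA-10, 242 in MII, 256 in GV and 369 in TubA-20, while *Eif4g1*, the scaffold that binds Eif4e, was at 35.9 FPKM in TubA-10 and 49.8 in MII (-0.46). No cytosolic tRNA synthetase of 20 was past 1.5-fold, with a median of 0.12.

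Respiratory chain subunits encoded in the nucleus differed by complex. Complex I, which takes electrons from NADH, had 34 of 37 members above 0, a median of 0.31, and 5 past 1.5-fold. *Ndufb3* was at 121 FPKM in TubA-10, 59.3 in MII, 112 in GV and 35.8 in TubA-20, *Ndufs5* at 278 FPKM in TubA-10, 155 in MII, 258 in GV and 118 in TubA-20 and *Ndufs7* at 106 FPKM in TubA-10, 62.8 in MII, 265 in GV and 24.3 in TubA-20. *Ndufa4*, placed in this list by its symbol alone, was at 562 FPKM in TubA-10, 669 in MII, 394 in GV and 1145 in TubA-20 (-0.25). All 4 genes of complex II, succinate dehydrogenase, were above 0, from *Sdha* (0.039) through *Sdhb* (0.45) and *Sdhc* (0.69) to *Sdhd*, at 89.2 FPKM in TubA-10, 41.0 in MII, 147 in GV and 30.1 in TubA-20 (1.10). ATP synthase had 17 of 18 above 0 and a median of 0.30, with *Atp5g2* at 124 FPKM in TubA-10 and 74.5 in MII. The medians were 0.10 in complex III, with *Uqcrb* highest (0.73), and 0.043 in complex IV, with *Cox5a* at 536 FPKM in TubA-10, 305 in MII, 1041 in GV and 326 in TubA-20. The sign of the complex IV median changed between scalings. Of the 13 mitochondrially encoded mRNAs 8 were listed at 0 in every library, so they give no reading here. In mitochondrial import 6 of 32 were higher and 1 lower, with *Tomm40* (above), *Tomm22* at 69.9 FPKM in TubA-10, 35.2 in MII, 134 in GV and 22.8 in TubA-20 and *Timm9* at 517 FPKM in TubA-10, 274.2 in MII, 566 in GV and 138 in TubA-20.

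In protein turnover and folding, the 20S proteasome had a median of 0.17, with *Psmb7* at 108 FPKM in TubA-10, 53.2 in MII, 273 in GV and 13.8 in TubA-20 and *Psmb4* at 107 FPKM in TubA-10, 66.7 in MII, 228 in GV and 29.4 in TubA-20 past 1.5-fold, and the 19S regulator 0.15, with *Psmd5* and *Psmc6* past it. The COP9 signalosome, which removes Nedd8 from cullins, had 8 of 10 above 0 and a median of 0.40, with *Cops4* at 105 FPKM in TubA-10, 64.0 in MII, 228 in GV and 39.9 in TubA-20 and *Cops7b* at 4.88 FPKM in TubA-10 and 2.77 in MII past 1.5-fold. Among members with a mean of at least 5 FPKM, 2 of 14 were higher in the 20S proteasome and 2 of 21 in the 19S regulator. In the COP9 signalosome 1 of 9 was higher. The share over all such genes was 8.66%, near that of the 19S and COP9 lists. Of the HSP90 machinery, a partner of HDAC6, *Hsp90ab1* was at 270.1 FPKM in TubA-10, 383 in MII, 277 in GV and 429 in TubA-20 (-0.50) and *Dnajb1*, an Hsp70 cochaperone, at 43.6 FPKM in TubA-10, 27.5 in MII, 74.7 in GV and 16.2 in TubA-20, the 1 member of 20 past 1.5-fold. No gene of the CCT chaperonin or of prefoldin and the tubulin cofactors, which fold tubulin, was past 1.5-fold, with medians of 0.13 and 0.20. In autophagy 3 of 34 were higher, *Atg4b* at 11.3 FPKM in TubA-10 and 4.85 in MII and *Atg101* at 56.7 FPKM in TubA-10 and 31.1 in MII the largest. Of its 21 members with a mean of at least 5 FPKM 2 were higher, near the share of 8.66% over all such genes.

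Redox genes stood on both sides. Of 47 genes 7 were higher and 1 lower by 1.5-fold, with a median of 0.045. Over the 28 with a mean of at least 5 FPKM the median was 0.16, with 21 above 0 and 7 below. Beside *Prdx3* (above), *Glrx*, glutaredoxin, was at 257 FPKM in TubA-10, 128 in MII, 351 in GV and 123.5 in TubA-20 and *Txn1*, thioredoxin, at 48.4 FPKM in TubA-10, 25.01 in MII, 75.5 in GV and 48.0 in TubA-20. On the other side stood *Gpx1* (above), *Gstm5*, a glutathione transferase, at 419.9 FPKM in TubA-10 and 629.7 in MII, and *Gpx3* at 16.9 FPKM in TubA-10 and 25.6 in MII. In the integrated stress response 1 of 20 was higher and 2 were lower by 1.5-fold, with a median of -0.15. Over the 12 members with a mean of at least 5 FPKM the median was -0.26, with 3 above 0 and 9 below. *Cebpb* was at 31.5 FPKM in TubA-10, 16.9 in MII, 61.6 in GV and 19.4 in TubA-20, *Atf4*, the central transcription factor of this response, at 96.1 FPKM in TubA-10, 64.1 in MII, 97.0 in GV and 37.6 in TubA-20, and *Eif2ak3*, the kinase PERK, at 13.3 FPKM in TubA-10, 20.7 in MII, 9.71 in GV and 27.8 in TubA-20. *Ddit3*, a pro-apoptotic target of Atf4, was at 25.2 FPKM in TubA-10 and 22.7 in MII, so of the stress genes named here *Nupr1* stood apart from the others in size. No p53 pathway gene of 23 was past 1.5-fold, and 8 were above 0 and 15 below, with a median of -0.099. Over the 11 of these genes with a mean of at least 5 FPKM the median was -0.17, with 2 above 0 and 9 below. *Trp53* was at 37.7 FPKM in TubA-10 and 49.0 in MII and *Bax* at 24.0 FPKM in TubA-10 and 17.5 in MII.

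In the nucleus the RNA polymerase subunits had a median of 0.29, 7 of 32 higher and 1 lower by 1.5-fold. *Znrd1*, of RNA polymerase I, was at 75.3 FPKM in TubA-10, 32.6 in MII, 213 in GV and 8.10 in TubA-20, *Polr2k*, shared by all 3 polymerases, at 124 FPKM in TubA-10, 64.8 in MII, 337 in GV and 23.8 in TubA-20, and *Polr2d* at 1429 FPKM in TubA-10, 849.6 in MII, 1143 in GV and 809 in TubA-20, while *Polr2j* was at 1109.6 FPKM in TubA-10 and 1325 in MII. In DNA replication 5 of 48 were higher and 1 lower. Of its 46 members with a mean of at least 5 FPKM 5 were higher and 1 lower, near the shares of 8.66% and 1.73% over all such genes. *Fen1*, the flap endonuclease, was at 18.0 FPKM in TubA-10, 7.31 in MII, 18.3 in GV and 2.30 in TubA-20 and *Rpa1*, which coats single strands, at 41.5 FPKM in TubA-10, 22.9 in MII, 52.9 in GV and 25.1 in TubA-20, and the sliding clamp loader subunit *Rfc1* was at 95.7 FPKM in TubA-10, 147 in MII, 67.8 in GV and 192 in TubA-20 (-0.61), the 1 member past 1.5-fold on the lower side. Of the spliceosome snRNP and Lsm genes 5 of 31 were higher and none lower, with *Lsm3* at 378 FPKM in TubA-10 and 196 in MII. Ribosome biogenesis (2 of 54 higher, *Emg1* at 155 FPKM in TubA-10 and 85.4 in MII) and nuclear pore genes (1 of 28 higher, *Nup43*) had medians of 0.052 and -0.073 (0.085 and -0.12 with a mean of at least 5 FPKM). Oocyte histone variants and chaperones lay below 0 in 14 of 20, none past 1.5-fold.

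**Figure D3:**
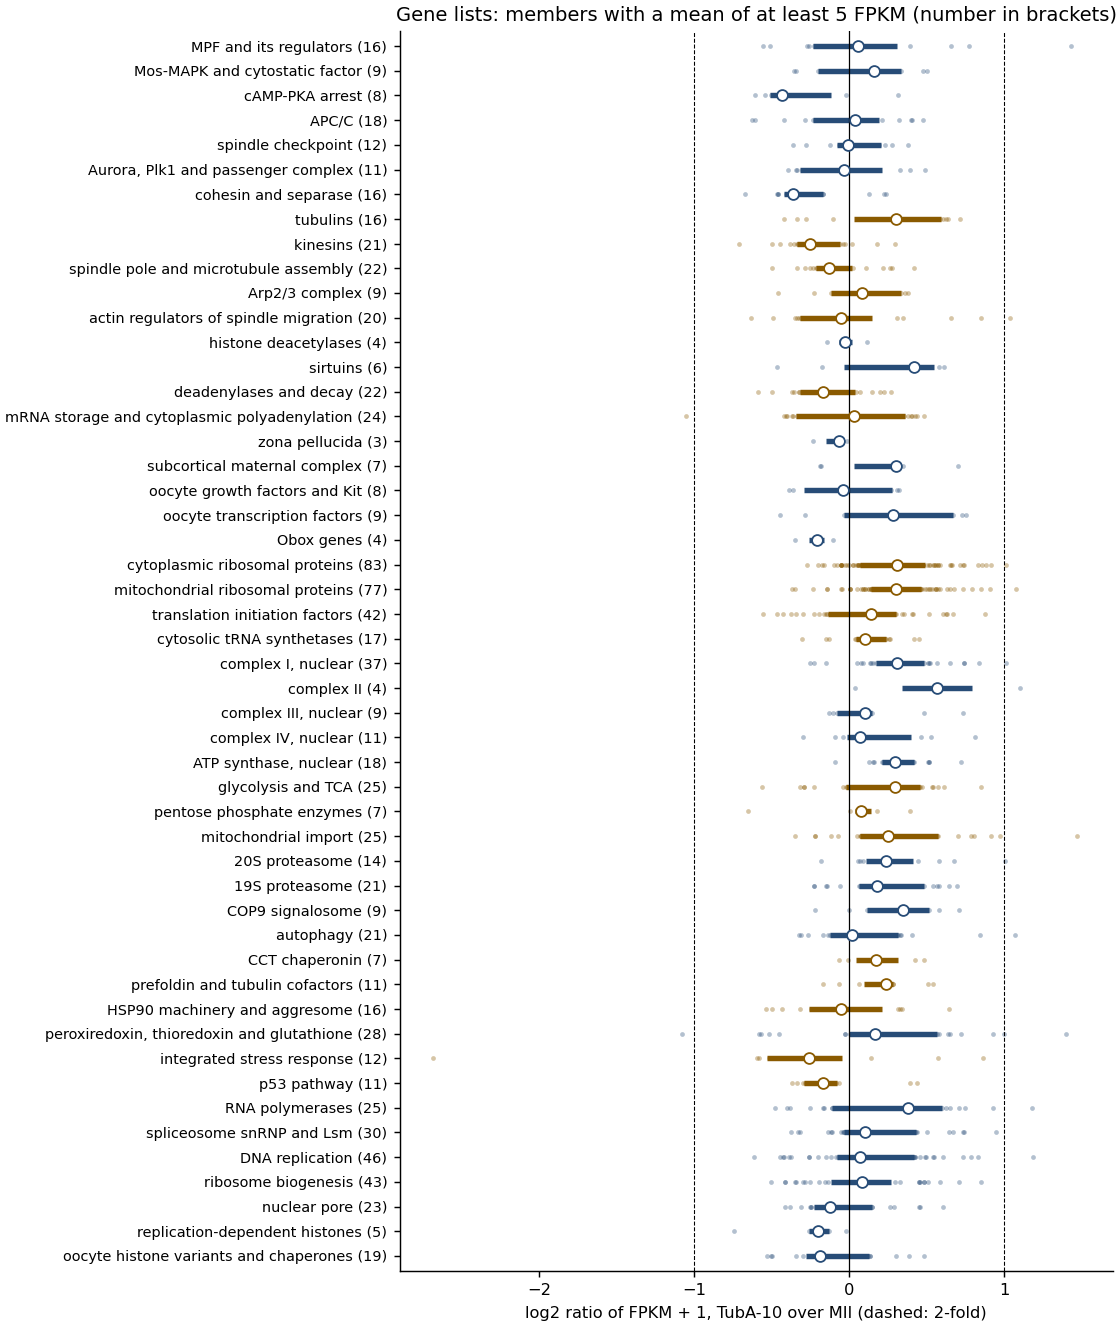
log2 difference (x axis, TubA-10 over MII) of list members with a mean of at least 5 FPKM over the 4 libraries, 1 small point for each gene, with the median as an open circle and the quartiles as a thick bar; colours only separate neighbouring blocks of lists. Ribosomal protein, complex I, complex II and ATP synthase lists lie to the right of 0, and cohesin, kinesin and cAMP-PKA lists to the left.

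Lists with short transcripts tended to lie above 0. Over 7131 genes with a transcript model and a mean of at least 5 FPKM, the median log2 difference was 0.27, 0.14, 0.022, -0.097 and -0.20 from the shortest to the longest of 5 equal bins of transcript length, with a Spearman coefficient of -0.41 across genes, which are not independent replicates. Over list members with that mean, the median lengths were 833 bases for cytoplasmic ribosomal proteins, 875 for complex I and 770.0 for ATP synthase, against 4819 for kinesins and 5110.0 for cohesin. Not all short lists lay alike. Complex IV had the shortest members of the respiratory complexes (645 bases), with a median difference of 0.072, and complex II members were 2066 bases long with a median of 0.57. By GC content the bins ran from -0.10 at the lowest to 0.19 at the highest, and by mean FPKM they stayed between -0.0091 and 0.056. The part of length and GC content in the list medians was not tested.

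Genes with a CPE in the last 150 bases of the 3′ UTR had a lower median difference than genes without one. Of 6352 genes with a long enough 3′ UTR and a mean of at least 5 FPKM, 1769 (27.8%) held one, and their median log2 difference was -0.13, against 0.041 for the other 4583. Within the bins of transcript length the difference between both medians was -0.20, -0.21, -0.19, -0.081 and -0.055, from short to long. A CPE stood in 15.98% of 513 genes that were higher by 1.5-fold and in 32.7% of 110 that were lower. AU-rich ATTTA elements anywhere in the 3′ UTR went with a difference of -0.21 over all these genes and between -0.12 and -0.052 within length bins. The Pumilio motif TGTANATA went with -0.16 over all genes and between -0.12 and 0.00060 within bins. These motifs can overlap AU-rich sequence, so their differences are not independent of each other.

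**Figure D4:**
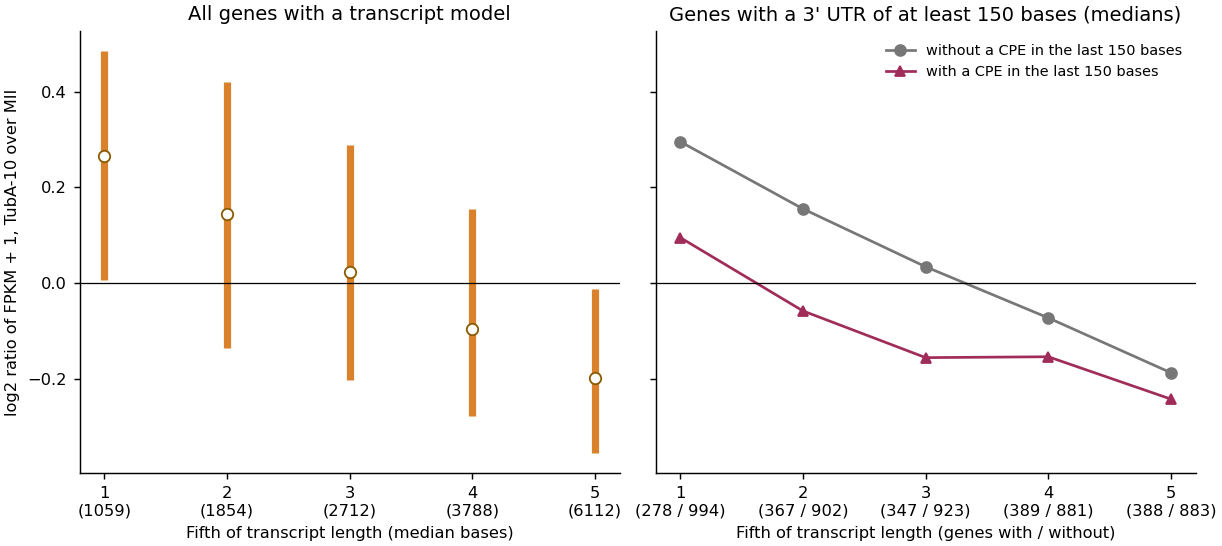
Median log2 difference (y axis) by 5 bins of transcript length, for all genes with a transcript model with quartiles as bars (left, median length in bases in brackets) and for genes with or without a CPE in the last 150 bases of the 3′ UTR (right, numbers of genes in brackets). Medians decline from 0.27 to -0.20 with length, and genes with a CPE lie below the others in each bin.

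A comparison that shares no library with TubA-10 against MII is that of TubA-20 with GV. Genes with at least 5 FPKM in GV or TubA-20 were put in classes by it, 7778 in all. The class of 968 genes whose TubA-20 value was below GV by more than 4-fold had a median log2 difference between TubA-10 and MII of 0.40, and 90.2% of them were above 0. The 1114 genes lower by 2- to 4-fold had a median of 0.35, with 86.1% above 0. Among the 4126 genes within 2-fold the median was -0.014, with 48.0% above 0, and it changed sign between scalings. The 1570 genes above GV by more than 2-fold in TubA-20 had a median of -0.26, and 13.4% were above 0. Past 1.5-fold, 252, 246, 172 and 5 genes of these classes were above MII in TubA-10, and 3, 3, 55 and 80 were lower. Pearson's r between both differences was -0.63 and Spearman's rho -0.68 over the 7778 genes, and within the 5 bins of transcript length r lay between -0.65 and -0.45. Genes share length, depth and base composition in all libraries and are not replicates, so no p is given.

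**Figure D5:**
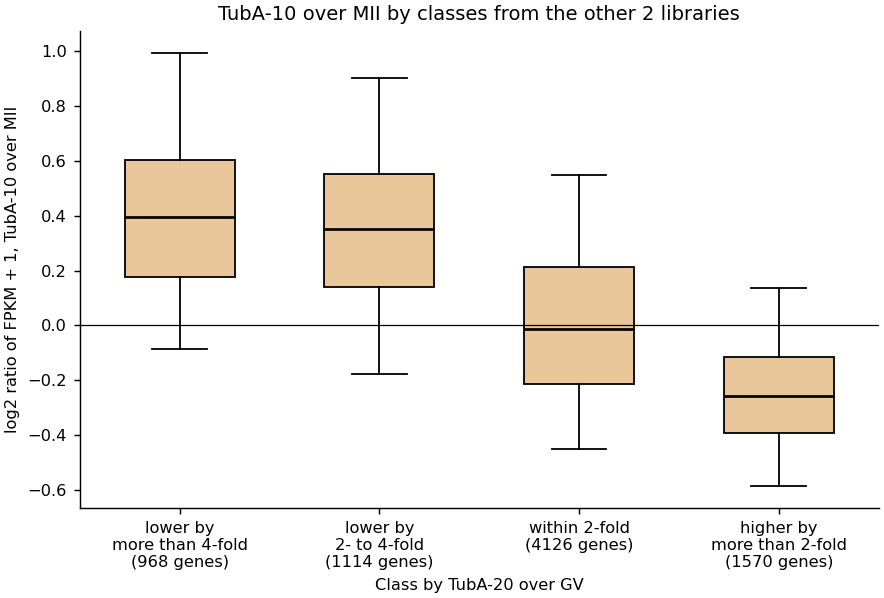
log2 difference between TubA-10 and MII (y axis) for 4 classes of genes defined by TubA-20 over GV (x axis). Boxes are quartiles with the median, whiskers the 5% and 95% percentiles over genes; the medians go from 0.40 in the class lower by more than 4-fold to -0.26 in the class higher by more than 2-fold.

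The TubA-10 library was rarely at the edge of the 4. For 82.0% of the 7148 genes it lay between the lowest and the highest library, compared with 79.4% for MII, 15.4% for GV and 23.3% for TubA-20. GV and TubA-20 were also the shallower libraries, and the part of depth was not tested. The selection that follows concerns TubA-10. TubA-10 stood above all other libraries by more than 1.5-fold for 12 genes (0.168%) and below all by that much for 2 (0.0280%), a selection made with the values in view. Those above were *Capza1*, *Lypla2*, *Tvp23b*, *Cdipt*, *Zdhhc4*, *Rtbdn*, *Lmbrd1*, *Khdc3*, *Dcpp2*, *Sumo3*, *Slc25a51* and *Rad51c*, and those below were *Nupr1* and *Pabpc1*. *Tvp23b*, a Golgi membrane protein, was at 99.3 FPKM in TubA-10, 50.7 in MII, 48.6 in GV and 39.9 in TubA-20. *Sumo3*, a small ubiquitin-like modifier, was at 139 FPKM in TubA-10, 89.1 in MII, 84.8 in GV and 36.1 in TubA-20, and *Cdipt*, which makes phosphatidylinositol, at 19.5 FPKM in TubA-10, 9.13 in MII, 10.3 in GV and 9.26 in TubA-20. *Lmbrd1*, which exports vitamin B12 from lysosomes, was at 41.3 FPKM in TubA-10, 19.2 in MII, 24.8 in GV and 16.03 in TubA-20, and *Rad51c*, of homologous recombination, at 18.8 FPKM in TubA-10, 12.1 in MII, 8.30 in GV and 9.93 in TubA-20. In *Tvp23b*, *Cdipt*, *Lmbrd1* and *Rad51c* the other 3 libraries lay closer to each other than to TubA-10. This did not hold for *Sumo3*, *Khdc3*, *Rtbdn* and *Dcpp2*, where TubA-20 was well below MII and GV. *Khdc3*, for example, was at 531 FPKM in TubA-20 and 1422 in MII. Nor did it hold for *Slc25a51*, at 18.2 FPKM in TubA-10, 7.10 in MII, 11.4 in GV and 6.16 in TubA-20.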

How the data were processed

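Polyadenylated RNA from pools of mouse oocytes was sequenced in 4 libraries, 1 for each condition, from stranded libraries selected with oligo(dT). The labels name TRIzol for the extraction and the paper a column kit, and the title of the series speaks of single cells, while the methods of the paper give pools. The authors deposited 1 table of FPKM values from Cufflinks, and the submitters' processing notes name STAR 2.5.0, Cuffdiff 2.2.1 and the build mm10. Such FPKM are scaled to transcript length and to library depth, and read counts were not used here. Of 21959 entries, 165 had no symbol and were kept under their identifier, and entries that share a symbol were summed, which left 21957 genes. Symbols, coordinates and transcripts came from GENCODE vM21 (GRCm38), by identifier.

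The log2 ratio of FPKM + 1 in TubA-10 over MII was computed for each gene, with calls past 2-fold or 1.5-fold and no test, since there was 1 library on each side. The depth of each library was estimated from the step between low FPKM values. Exact 95% intervals of a ratio were derived from fragments estimated that way, and cover counting error only. Transcript features were taken from 1 principal coding transcript of each gene, and were read over genes with a mean of at least 5 FPKM in the 4 libraries.

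Named were the 15 largest differences in each direction among genes with a symbol and at least 10 FPKM in either library, every member of lists with up to 16 members where space allowed, and the largest differences (up to 3 in each direction) and 2 highest levels of longer lists among members with at least 5 FPKM. *Gapdh* and genes of the paper's figures that belong to a list were added. Not every member's value is reported here. The comparison, the 58 gene lists and these rules were chosen with earlier results of these data known, so the lists are no independent evidence. Calls past 1.5-fold and the minimum on the mean were added after the values had been seen. Lists are described by counts and medians, with no set test. Mitochondrial tRNA synthetases (median 0.087, none past 1.5-fold), glycolysis and the TCA cycle (0.071, 2 higher, and 0.30 over the 25 members with a mean of at least 5 FPKM, 17 of them above 0), pentose phosphate enzymes (0.073, 1 lower), replication-dependent histones (2 higher and 1 lower of 67, 29 listed at 0 in every library) and genes of early embryo activation (none of 17) are given by these values only. Scripts were tested on simulated data and run with Python 3.11.15 (scipy 1.17.1, pandas 2.3.3, matplotlib 3.10.9, numpy 2.4.6).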

Additional observations from a re-analysis of the deposited data

Results flagged for a closer look

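For 11 of the genes named in the report or below, TubA-10 and TubA-20 lay on opposite sides of MII, each by more than 2-fold. Most were named for a large difference between TubA-10 and MII, and the share of all genes with this pattern was not counted. Over all 21957 genes, 0.515% were more than 2-fold higher and 0.128% lower in TubA-10 than in MII. In TubA-20 0.328% were higher and 2.44% lower than in MII. Both contrasts share the MII library and have 1 library on each side, so the difference between the doses was not tested. The log2 difference from MII, first for TubA-10 and then for TubA-20, was 1.47 and -1.29 for *Cyb5a*, and 1.47 and -1.66 for *Tomm40*. In the same order it was 1.43 and -1.45 for *Cdk1*, 1.40 and -1.11 for *Prdx3*, and 1.35 and -1.54 for *Plekhh3*. It was 1.19 and -1.33 for *Fen1*, 1.004 and -1.87 for *Psmb7*, 1.18 and -1.89 for *Znrd1*, 1.04 and -1.53 for *Cox17*, and 1.09 and -1.94 for *Chchd2*. *Nupr1* was the reverse, with -2.69 and 1.89.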

How the results depend on the processing

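No paired analysis was possible because each condition had 1 library, and for the same reason no library could be left out. The number of genes past a fold depended most on low values. A pseudocount of 0.1 FPKM in place of 1 gave 653 higher and 443 lower genes past 2-fold, and 0.01 gave 1704 and 1393. The threshold mattered as much, with 2 higher and 6 lower genes past 3-fold, and 841 and 231 past 1.5-fold (a threshold added after seeing the data). With at least 5 FPKM in either library 15 genes were lower, and 11 with a mean of at least 5 FPKM, also added later. At least 1 FPKM in either library and the highest entry for each symbol left the counts at 113 and 28.

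Of 58 list medians 7, all near 0, took either sign under other scalings (MPF, APC/C, spindle checkpoint, Aurora and Plk1, mRNA storage, complex IV, autophagy). The kinesin median was -0.26 with a pseudocount of 0.01 and with at least 1 or 5 FPKM, and -0.25 with a mean of at least 5 FPKM. With that mean other medians also lay farther from 0, at -0.43 for cAMP-PKA arrest, -0.36 for cohesin, 0.30 for tubulins, 0.16 for redox genes, -0.26 for the integrated stress response, 0.25 for mitochondrial import and 0.30 for glycolysis and the TCA cycle.

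The class medians kept their order under each alternative. In the class more than 4-fold lower the median was 0.43 with either smaller pseudocount and with at least 5 FPKM in either library, 0.44 with equal *Gapdh* and 0.35 with equal FPKM sums. In the class 2- to 4-fold lower it was 0.38 with these pseudocounts and with that minimum, 0.31 with a median change of 0, 0.30 with equal sums, 0.32 with equal upper quartiles and 0.40 with equal *Gapdh*. Within 2-fold it was -0.062 with a median change of 0, -0.072 with equal sums, -0.053 with equal upper quartiles and 0.038 with equal *Gapdh*. In the class more than 2-fold higher it was -0.27 with either pseudocount and with a median change of 0, -0.31 with equal sums, -0.29 with equal upper quartiles and -0.22 with equal *Gapdh*.

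Of 270 values of the 30 named genes under these alternatives, 267 kept direction and side of 2-fold and none changed direction. *Rsc1a1* passed 2-fold with the smaller pseudocounts, and *Rtn4ip1* (-0.99) no longer did with equal *Gapdh*. Counting error is small for these genes, apart from *Nupr1*, *Ly96*, *Sap18b* and *Gm28036*, which rest on under 50 fragments in a library. The spread between pools of one condition was not measured.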

Other observations

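Some of the most abundant genes of the oocyte were also past 2-fold, and the following were picked out after their values had been seen. *Eloc*, elongin C, a subunit of cullin ubiquitin ligases, was at 2248 FPKM in TubA-10, 1113 in MII, 2419 in GV and 836 in TubA-20, a log2 difference of 1.01. *Kpna2*, an importin that carries proteins into the nucleus, was at 682 FPKM in TubA-10, 289.5 in MII, 481 in GV and 198 in TubA-20 (1.23). *Cox17*, the copper chaperone of cytochrome oxidase, was at 549 FPKM in TubA-10, 266 in MII, 999 in GV and 91.1 in TubA-20 (1.04), and *Chchd2*, a small protein of the mitochondrial intermembrane space, at 433 FPKM in TubA-10, 203 in MII, 576 in GV and 51.9 in TubA-20 (1.09). In each of the 4 genes TubA-20 was the lowest library. TubA-10 was the highest in *Kpna2* and second to GV in the others.

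On the lower side *Spp1*, osteopontin, was at 0.152 FPKM in TubA-10, 4.23 in MII, 0.0633 in GV and 5.11 in TubA-20, a log2 difference of -2.18, and *Krt18*, a keratin of simple epithelia, at 0.0548 FPKM in TubA-10, 1.79 in MII, 0.786 in GV and 0.537 in TubA-20 (-1.40). Both were at low levels, with *Spp1* near 0 in GV and TubA-10 and *Krt18* near 0 in TubA-10.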
